A study of Mus musculus with 4 samples.

Results

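Genes of the division machinery were examined on 4 Illumina bead arrays of mouse RNA: the kinesin motors, the centromere proteins named CENP, and a set of kinetochore, spindle and cytokinesis proteins. The members were all array probes whose platform gene symbol was a Kif number, with or without a letter, a Cenp letter, or 1 of 15 named genes such as Tpx2, Prc1 and Mad2l1. This gave 82 of 24613 probes and 56 of 15967 genes. By role they were 9 mitotic kinesins, 12 transport kinesins, 5 other kinesins, 15 centromere genes, 5 outer kinetochore and checkpoint genes and 10 spindle and cytokinesis genes. T23 and T1525 are tumor cell lines from the prostate of C57Bl/6 TRAMP mice at 30 weeks of age, with 1 array each. In TRAMP mice the probasin promoter drives the SV40 tumor antigens in prostate epithelium. The other 2 arrays, normal 1 and normal 2, hold prostate tissue of wild-type C57Bl/6 mice at 18 weeks. Tumor origin, growth in culture and age all differ between the groups and cannot be told apart. Separate mice are not stated for the normal arrays, so errors and p-values cover only the spread between these arrays.

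Kinesins are motors that use ATP to move along microtubules or to take their ends apart. One set of them builds the bipolar spindle, aligns chromosomes and forms the central spindle for cytokinesis, and is made mostly in dividing cells, while another carries vesicles and organelles in cells of every kind, neurons above all. The centromere is marked by the histone variant Cenpa, on which a constitutive complex of CENP proteins sits through the cell cycle, and in mitosis the Ndc80 complex of the outer kinetochore binds microtubules to it. Adult prostate epithelium divides slowly, and in dividing cells many of these genes are transcribed late in the cycle through promoters with a CCAAT box and a cell cycle homology region, the binding sites of NF-Y and of the MuvB complex.

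The promoters of the mitotic and the transport kinesins differed in these letters, so both kinds are shown, with those of Cenpa, Prc1 and Spag5. Sequences are from RefSeq on build GRCm38.p6, 5′ to 3′ on the gene's strand, from 110 bases before the annotated start site to 30 bases after it. Capitals mark CCAAT (or its reverse complement ATTGG) and the cell cycle homology letters TTTGAA (or TTCAAA) and TTCGAA. The first 6 are the mitotic kinesins that rose in the lines, and Kif11 is a mitotic kinesin whose array probe stayed at background.
Kif2c (chr4:117178743-117178882, - strand): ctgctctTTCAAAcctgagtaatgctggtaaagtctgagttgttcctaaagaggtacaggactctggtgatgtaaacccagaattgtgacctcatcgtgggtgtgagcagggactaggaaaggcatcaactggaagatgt
Kif4 (chrX:100625955-100626094, + strand): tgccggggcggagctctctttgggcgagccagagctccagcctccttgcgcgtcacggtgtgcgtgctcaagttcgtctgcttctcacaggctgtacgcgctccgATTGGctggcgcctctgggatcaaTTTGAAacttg
Kif18b (chr11:102925095-102925234, - strand): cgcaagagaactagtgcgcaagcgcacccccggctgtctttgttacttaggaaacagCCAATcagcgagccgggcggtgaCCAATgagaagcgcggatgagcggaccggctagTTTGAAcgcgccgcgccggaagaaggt
Kif20b (chr19:34922248-34922387, + strand): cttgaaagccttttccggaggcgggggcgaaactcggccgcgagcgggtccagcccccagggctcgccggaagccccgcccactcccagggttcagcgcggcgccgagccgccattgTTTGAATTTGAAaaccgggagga
Kif22 (chr7:127042391-127042530, - strand): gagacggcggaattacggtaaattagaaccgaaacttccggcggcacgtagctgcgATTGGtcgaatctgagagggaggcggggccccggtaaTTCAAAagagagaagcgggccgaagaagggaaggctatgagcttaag
Kif23 (chr9:61946770-61946909, - strand): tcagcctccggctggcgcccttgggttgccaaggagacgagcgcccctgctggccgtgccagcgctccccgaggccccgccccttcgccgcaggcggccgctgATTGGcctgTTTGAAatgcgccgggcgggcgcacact
Kif11 (chr19:37376272-37376411, + strand): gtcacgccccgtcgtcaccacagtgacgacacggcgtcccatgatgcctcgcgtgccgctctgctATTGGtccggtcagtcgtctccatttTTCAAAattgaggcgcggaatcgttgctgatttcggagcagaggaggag
The next 3 belong to the centromeric histone and to the spindle proteins Prc1 and Spag5.
Cenpa (chr5:30666776-30666915, + strand): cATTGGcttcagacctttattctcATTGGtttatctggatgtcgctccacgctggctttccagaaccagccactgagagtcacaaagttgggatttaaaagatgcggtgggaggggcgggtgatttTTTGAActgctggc
Prc1 (chr7:80294341-80294480, + strand): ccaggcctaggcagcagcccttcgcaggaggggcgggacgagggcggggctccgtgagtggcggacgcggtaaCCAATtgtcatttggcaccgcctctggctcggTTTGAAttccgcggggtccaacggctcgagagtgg
Spag5 (chr11:78301481-78301620, + strand): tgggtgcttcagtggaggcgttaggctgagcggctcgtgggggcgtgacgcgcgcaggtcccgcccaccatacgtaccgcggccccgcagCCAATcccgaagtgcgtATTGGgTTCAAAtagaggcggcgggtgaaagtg
The last 2 are transport kinesins whose expression did not pass the test, and neither holds the cell cycle homology letters here. Kif1a, a transport kinesin not printed, does hold them in this stretch.
Kif3a (chr11:53567259-53567398, + strand): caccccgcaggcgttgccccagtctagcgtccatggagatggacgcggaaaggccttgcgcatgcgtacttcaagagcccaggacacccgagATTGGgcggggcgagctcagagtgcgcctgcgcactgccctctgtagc
Kif13a (chr13:46929689-46929828, - strand): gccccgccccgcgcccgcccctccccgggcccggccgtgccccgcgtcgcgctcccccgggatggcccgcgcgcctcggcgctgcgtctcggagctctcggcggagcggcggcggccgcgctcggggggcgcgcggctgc

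Of the 56 members, 50 had a promoter in the RefSeq table, which gives 300 bases for each window. The cell cycle homology letters lay on either strand in 8 of 9 mitotic kinesins, all but Kif18a. They also lay in 7 of 8 spindle and cytokinesis genes, all but Nusap1. This was against 21.7% of 27025 genes in the table and 17.2% of the 8786 genes measured on the arrays that it holds. They lay in 1 of 9 transport kinesins (Kif1a), 1 of 5 other kinesins (Kif27), 2 of 4 outer kinetochore and checkpoint genes (Ndc80 and Spc25) and 3 of 15 centromere genes (Cenpa, Cenpm and Cenpn). Within the stretch printed above, the counts were again 8 of 9 and 7 of 8, against 9.55% of all genes. The CCAAT letters were in 5 of 9 mitotic kinesins, 5 of 8 spindle and cytokinesis genes and 9 of 15 centromere genes. They were in 1 of 4 outer kinetochore and checkpoint genes, 2 of 9 transport kinesins and 2 of 5 other kinesins. The share was 41.1% of all genes and 42.3% of those measured. Both motifs stood together in 5 mitotic kinesins, 5 spindle and cytokinesis genes and 3 centromere genes. They did so in 1 outer kinetochore gene, 1 other kinesin and 0 transport kinesins, against 8.61% of all genes. Nusap1, Mad2l1, Cenpp and Cenpt, all called higher below, held neither motif. The median GC content of the windows was 60.7% for the mitotic and 69.3% for the transport kinesins, against 52.8% for all genes and 60% for those measured. The window of Kif13a, printed above, had 86.7%. A match is a match of letters only, and short AT-rich letters are rarer where GC is high.

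**Figure D1:**
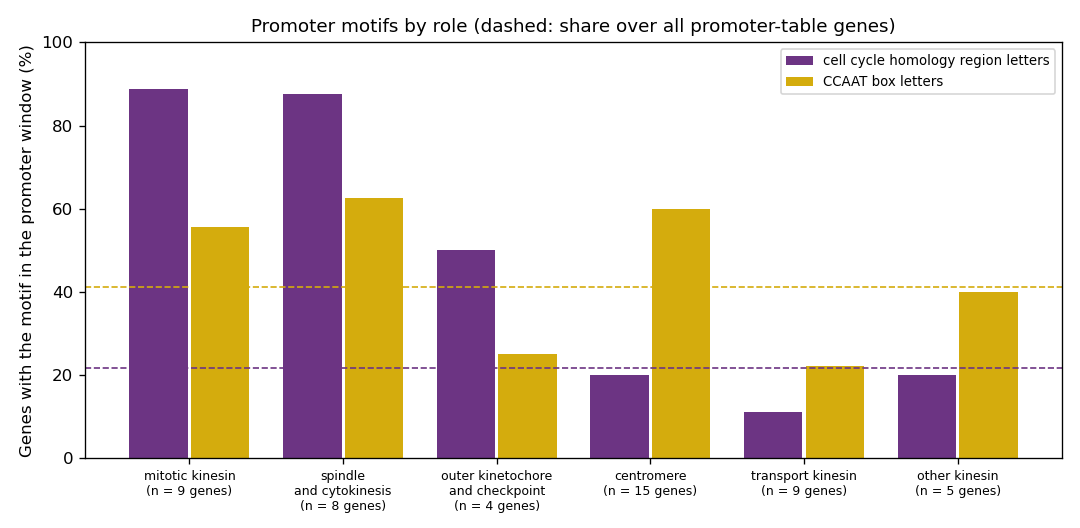
Share of genes (%) with the cell cycle homology letters (purple) or the CCAAT letters (yellow) in the RefSeq promoter window, by role, with the number of matched genes under each pair of bars. Dashed lines give the shares over all 27025 genes of the table, 21.7% and 41.1%; the purple bars of the mitotic kinesins (8 of 9 genes) and of the spindle and cytokinesis genes (7 of 8) stand far above theirs.

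Values are log2 of the deposited normalized intensities, and a probe counts as measured when it lies above a background threshold of 6.69 on at least 1 array. Between 50.8% and 51.0% of probes did so on each array, and the small number of arrays limits the precision. Of the 56 members 45 were measured and 11 lay at background on all 4 arrays, and 11 of the 45 passed through the lines alone, with both normal arrays at background. The labels were checked against markers. All 4 prostate secretory genes lay at background in both lines. Of 4 epithelial genes T23 had 1 above background (Krt18, at 8.94), T1525 had 4, and each normal array had 3, with Epcam at background. Krt8 read 5.98 in T23 and 14.12 in T1525, and Cdh1 6.37 and 10.96. Among 3 proliferation genes apart from the members, Top2a read 12.62 and 12.85 in T23 and T1525, and 8.68 and 8.25 in normal 1 and 2. Its log2 difference of 4.27 was the largest of the 3, with Mcm2 at 2.77 and Pcna at 2.69. The summed intensity of 5 smooth muscle genes was 27516 in T23 and 357 in T1525 against 122106 to 127084 in normal prostate. Most of the T23 sum was Acta2, at 14.72, while Myh11, Des and Cnn1 lay at background there and Actg2 read 8.11. The sum of 5 leukocyte genes was 310 in T23 and 393 in T1525 against 17618 to 40073. That of 5 skeletal muscle genes was 379 and 474 against 46102 to 52352, and that of 5 endothelium genes 558 and 451 against 5792 to 14290. The sum of 3 mesenchyme genes went the other way in T23, at 49213 against 6369 to 15718, and was 12010 in T1525. Their part in the results below was not tested. Of the label's 3 markers Cenpa and Tpx2 were measured and Kif11 was not. In bulk RNA a larger share of dividing cells and more RNA per cell cannot be told apart.

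Comparing the lines with normal prostate asks how the tumor cell lines differ from the tissue. Most genes with a role in mitosis rose in the lines. No transport kinesin passed the test, which is near the share of all measured genes given below. In limma's fit of the 2 lines against the 2 normal arrays, with Benjamini-Hochberg adjustment over 15767 probes and a threshold of 0.05, 27 of the 56 members rose and 0 fell. They were 6 of 9 mitotic kinesins, 8 of 15 centromere genes, 4 of 5 outer kinetochore and checkpoint genes and 9 of 10 spindle and cytokinesis genes. Over all 10903 measured genes 5.30% rose and 6.09% fell. With no filter on dim probes 27 of 56 members rose as well, against 4.48% of 15967 genes, and 20 of the 27 lay above background on all 4 arrays. Both lines read above both normal arrays in 38 of the 45 measured members, against 36.3% of measured genes, and below them in 4, against 28.5%. Of the 45, 11 were measured in the lines alone, against 1354 of the 10903 genes, so these counts rest in part on the filter. Among members above background on all 4 arrays 20 of 32 were called higher, against 489 of 6836 genes. The measured members had a median log2 difference of 2.97, the same after raising values at background to the threshold, beside 0.11 for all measured genes. The 2 normal arrays differed from each other by a median of 0.19 over these members, and by at most 1.04 (Spc25).

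When either normal array was left out, limma called 0 of all probes, members included. The probes with an unadjusted p under 0.05 numbered 2547 without normal 1, 2342 without normal 2 and 4990 in the full fit. Among the members 28 were higher at an unadjusted p under 0.05 each time, where the full set of arrays gave 33, and all 27 called members kept their sign, with log2 differences of at least 1.71 without normal 1 and 1.51 without normal 2. Dropping T23 gave 34 members higher and 2 lower, of 1800 and 1612 genes in all, and dropping T1525 gave 30 higher and 1 lower, of 1692 and 1623. Cyclic loess scaling moved the median difference of all probes from 0.19 to -0.02 and left 25 members higher, with Cenpt (adjusted p = 0.0546) and Ndc80 (adjusted p = 0.0522) short of the threshold.

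**Figure D2:**
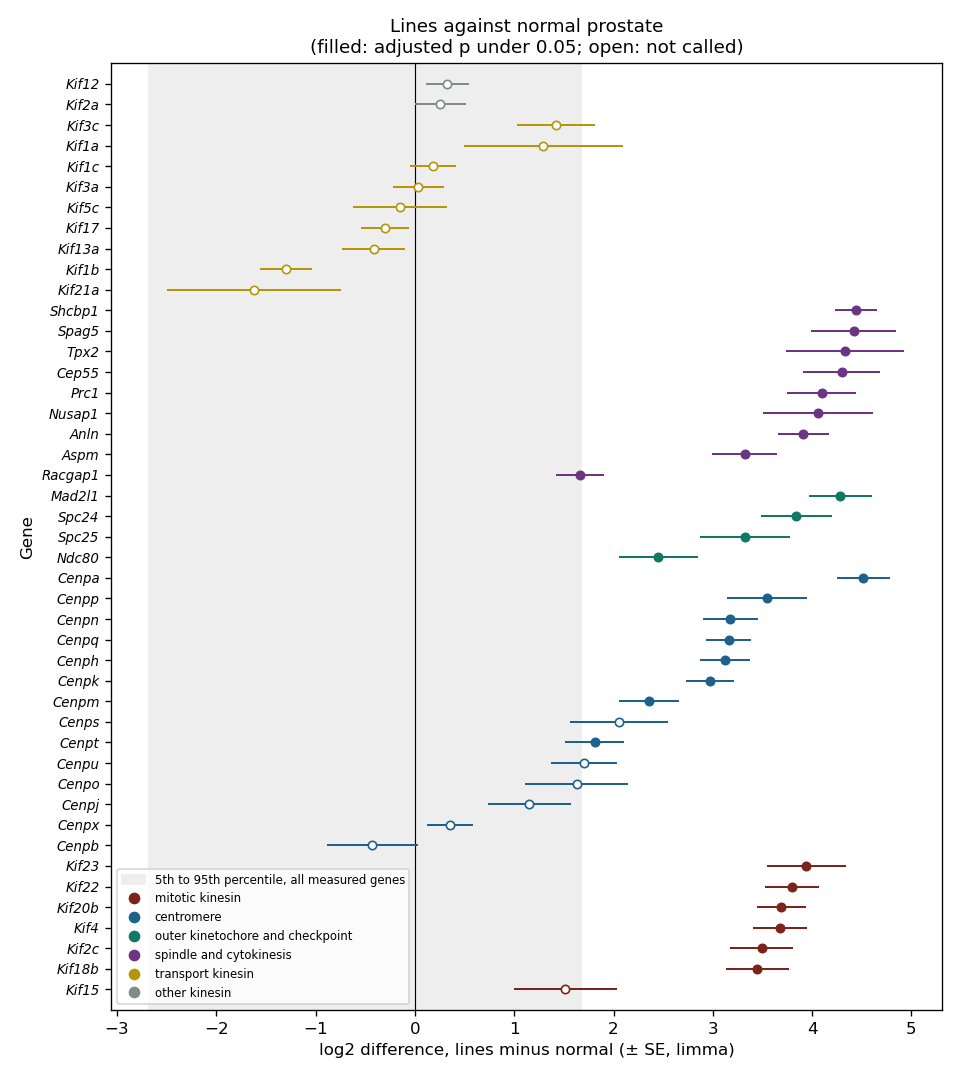
Difference between the 2 lines and the 2 normal arrays (log2, lines minus normal, x axis) for the 45 measured members, with bars of ± 1 SE from limma and colors by role. Filled points passed an adjusted p of 0.05; the grey band spans the 5th to the 95th percentile of all measured genes (-2.68 to 1.68), and 26 of the 27 filled points lie beyond it.

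Of the 7 measured mitotic kinesins 6 rose, by 3.45 to 3.94 on the log2 scale. Kif15 and Kif20b counted as measured through the lines alone, and the other 5 lay above background on all 4 arrays. Kif23, the motor of the centralspindlin complex that cytokinesis needs, read 12.51 and 13.16 in T23 and T1525, and 8.54 and 9.25 in normal 1 and 2. Both lines lay above both normal arrays, and the mean was 12.84 ± 0.46 for the lines (SD, n = 2) against 8.89 ± 0.50 for normal tissue (SD, n = 2), a 15.4-fold rise (3.94 on the log2 scale, SE 0.40, adjusted p = 0.0201). Kif4, a chromokinesin that also works at the spindle midzone, read 10.47 and 10.95 in T23 and T1525, and 7.09 and 6.97 in normal 1 and 2, 12.8-fold higher in the lines (3.68 on the log2 scale, SE 0.28, adjusted p = 0.0138). Kif20b, a motor of cytokinesis, read 10.01 and 10.36 in T23 and T1525, and 6.49 and 6.50 in normal 1 and 2. Neither normal array lay above background, so the rise was at least 11.3-fold (3.69 on the log2 scale, SE 0.25, adjusted p = 0.0122, for the fitted difference). A second Kif4 probe and a second Kif18b probe were called higher as well.

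Kif22, the chromokinesin that pushes chromosome arms away from the poles, read 11.40 and 11.84 in T23 and T1525, and 7.93 and 7.72 in normal 1 and 2, and was 13.9-fold higher (3.79 on the log2 scale, SE 0.27, adjusted p = 0.0132). Kif2c, a kinesin that does not walk but takes microtubule ends apart at centromeres, read 10.70 and 11.27 in T23 and T1525, and 7.67 and 7.32 in normal 1 and 2, and rose 11.2-fold (3.49 on the log2 scale, SE 0.32, adjusted p = 0.0186). Kif18b, which acts on the plus ends of astral microtubules, read 10.13 and 10.77 in T23 and T1525, and 7.08 and 6.93 in normal 1 and 2, and rose 10.9-fold (3.45 on the log2 scale, SE 0.31, adjusted p = 0.0186). In each of these genes the 2 lines were closer to each other than to either normal array.

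Kif15, a motor that can keep the spindle bipolar beside Kif11, was the measured mitotic kinesin that did not pass. It read 6.72 and 8.05 in T23 and T1525, and 5.97 and 5.78 in normal 1 and 2, so T23 lay just above the background threshold of 6.69 and the normal arrays below it. Its fitted difference was 1.51 (SE 0.52, adjusted p = 0.142). A single line moved the value: the difference was 2.18 without T23 (adjusted p = 0.0114) and 0.85 without T1525 (adjusted p = 0.0657). The other two mitotic kinesins gave no reading. Kif11, the motor that pushes the spindle poles apart, read 5.73 and 6.00 in T23 and T1525, and 5.94 and 5.76 in normal 1 and 2, and Kif18a, which dampens chromosome movement at the metaphase plate, read 5.93 and 5.85 in T23 and T1525, and 5.94 and 6.17 in normal 1 and 2. All 8 of these values lie under the threshold, and each gene had a single probe on the array, so nothing follows from them about the transcripts.

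**Figure D3:**
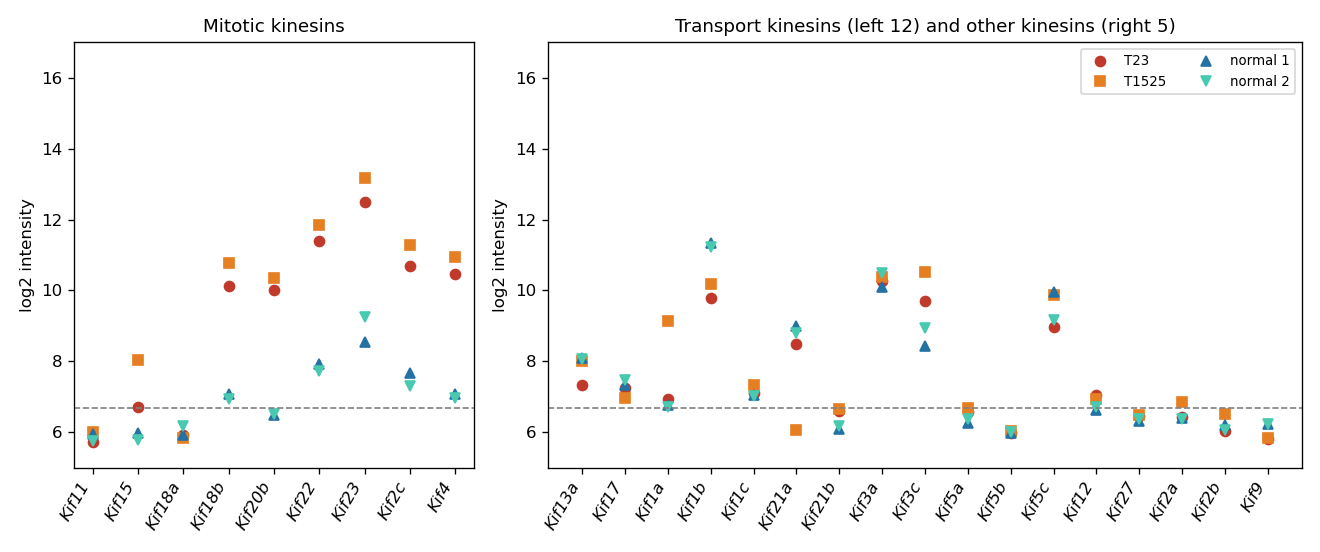
Log2 intensity of each kinesin gene on each of the 4 arrays (red circle T23, orange square T1525, blue and green triangles normal 1 and normal 2), with mitotic kinesins at left and transport and other kinesins at right. The dashed line is the background threshold of 6.69; levels of different genes are not comparable on these arrays. In 6 of 9 mitotic kinesins both lines stand well above both normal arrays. Among the transport kinesins the 4 points lie close together for Kif1c, Kif3a and Kif17 and far apart for Kif21a, Kif1a, Kif3c and Kif1b. Kif5a, Kif5b and Kif21b lie at background.

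The transport kinesins differed in sign, and limma called 0 of 12. With 9 measured, that is near the shares of all measured genes, 5.30% higher and 6.09% lower. Of the 9 measured, both lines lay above both normal arrays in 3, below them in 4 and among them in 2, with a median log2 difference of -0.15. Kif1b, which carries mitochondria and synaptic vesicle precursors, read 9.78 and 10.20 in T23 and T1525, and 11.34 and 11.23 in normal 1 and 2. That was the nearest to a call, 2.45-fold lower (-1.29 on the log2 scale, SE 0.26, adjusted p = 0.0583), and with cyclic loess it passed at -1.45 (adjusted p = 0.0462). Its 3 other kept probes had differences of -0.85, -0.29 and 0.11, so the probes did not agree on the size.

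Kif21a and Kif1a were the transport kinesins in which the lines differed most. Kif21a, a kinesin that restrains microtubule growth, read 8.49 and 6.07 in T23 and T1525, and 8.99 and 8.81 in normal 1 and 2, so that T1525 alone lay at background. The fit gave -1.62, short of the threshold (adjusted p = 0.285); it gave -2.83 without T23 (adjusted p = 0.00771) and -0.41 without T1525 (adjusted p = 0.24). Kif1a, the axonal motor of synaptic vesicle precursors, read 6.93 and 9.14 in T23 and T1525, and 6.76 and 6.72 in normal 1 and 2, with T1525 alone clearly above background. The fit gave 1.29, short of the threshold (adjusted p = 0.339); it gave 2.40 without T23 (adjusted p = 0.00921) and 0.19 without T1525 (adjusted p = 0.528). The neuronal markers did not all move with Kif1a. Of 7, 3 lay above background in T23, 4 in T1525 and 5 in each normal array. Their summed intensity was 1211 in T23 and 1694 in T1525 against 2978 and 3159. Stmn2 and Syp were lower in the lines, by -3.19 and -3.01, and Snap25 and Nefl were at background on all 4 arrays. Elavl4 and Tubb3 read above both normal arrays in both lines, by 0.41 and 0.49 without passing (adjusted p = 0.294 and 0.284). Uchl1 read 9.06 and 10.05 in T23 and T1525, and 10.26 and 10.25 in normal 1 and 2. The part of these markers in the Kif1a value was not tested.

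Kif3c, a motor subunit of kinesin-2, read 9.71 and 10.51 in T23 and T1525, and 8.44 and 8.93 in normal 1 and 2, and was 2.68-fold higher without passing (1.42 on the log2 scale, SE 0.39, adjusted p = 0.0989); the difference was 1.82 without T23 (adjusted p = 0.024) and 1.02 without T1525 (adjusted p = 0.0763). Its partner family member Kif3a, a motor of cilia and vesicle transport, read 10.28 and 10.39 in T23 and T1525, and 10.11 and 10.48 in normal 1 and 2, which places the lines within the range of the normal arrays (log2 difference 0.04, SE 0.25, adjusted p = 0.931). Kif5c, a neuronal form of conventional kinesin, read 8.96 and 9.88 in T23 and T1525, and 9.96 and 9.18 in normal 1 and 2, again overlapping. Kif13a, Kif17 and Kif1c had fitted differences of -0.41, -0.30 and 0.19, none past the threshold (adjusted p between 0.424 and 0.605). Kif5a, Kif5b and Kif21b lay at background on all arrays. Of the other kinesins, Kif12 read 7.05 and 6.95 in T23 and T1525, and 6.64 and 6.71 in normal 1 and 2, and Kif2a, a microtubule depolymerase, read 6.44 and 6.85 in T23 and T1525, and 6.41 and 6.37 in normal 1 and 2, above background in T1525 alone. They differed by 0.33 and 0.25 without passing (adjusted p = 0.368 and 0.532), and Kif2b, Kif9 and Kif27 lay at background. Without T23 the largest differences of transport kinesins were those of Kif21a (-2.83), Kif1a (2.40), Kif3c (1.82) and Kif1b (-1.09). Without T1525 the largest was that of Kif1b (-1.50). The signs of Kif3a and Kif1c turned with cyclic loess, to -0.14 and -0.12.

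The centromeric histone rose most among the centromere genes. Cenpa, the histone H3 variant that marks the centromere, read 13.83 and 13.46 in T23 and T1525, and 9.27 and 8.99 in normal 1 and 2. The lowest line value lay above the highest normal value on the log2 intensity scale, and T23 was the higher of the lines. The mean was 13.65 ± 0.26 for the lines (SD, n = 2) against 9.13 ± 0.20 for normal tissue (SD, n = 2), a 22.9-fold rise (4.52 on the log2 scale, SE 0.27, adjusted p = 0.011). Cenpn, which reads the Cenpa nucleosome, read 9.99 and 9.53 in T23 and T1525, and 6.69 and 6.47 in normal 1 and 2, with both normal arrays at background, and was at least 8.36-fold higher (3.18 on the log2 scale, SE 0.28, adjusted p = 0.0175, for the fitted difference).

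The subcomplexes of the constitutive centromere network were called to different extents. Cenph, Cenpk and Cenpm, which sit together in one subcomplex, all rose: Cenph read 9.73 and 10.08 in T23 and T1525, and 6.83 and 6.73 in normal 1 and 2 (8.72-fold, adjusted p = 0.0154). Cenpk rose 7.85-fold (adjusted p = 0.0154) and Cenpm 5.13-fold (adjusted p = 0.0281), both from near the background threshold in normal prostate. In the subcomplex of Cenpo, Cenpp, Cenpq and Cenpu, the first and the last were not called. Cenpp read 10.81 and 11.51 in T23 and T1525, and 7.96 and 7.28 in normal 1 and 2, and rose 11.6-fold (3.54 on the log2 scale, SE 0.40, adjusted p = 0.0245). Cenpq read 10.98 and 11.06 in T23 and T1525, and 7.97 and 7.75 in normal 1 and 2, and rose 8.93-fold (3.16 on the log2 scale, SE 0.23, adjusted p = 0.0132). Cenpu read 8.03 and 8.75 in T23 and T1525, and 6.69 and 6.69 in normal 1 and 2 (fitted log2 difference 1.70, adjusted p = 0.0542), and with the threshold asked of at least 2 arrays it passed at adjusted p = 0.0496. Without T23 its difference was 2.06 (adjusted p = 0.0112) and without T1525 1.34 (adjusted p = 0.0238). Cenpo read 10.37 and 11.70 in T23 and T1525, and 9.47 and 9.34 in normal 1 and 2, with a difference of 1.63 (adjusted p = 0.126) that was 2.29 without T23 (adjusted p = 0.0101) and 0.96 without T1525 (adjusted p = 0.0477).

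Cenpt, Cenps and Cenpx, histone-fold proteins of the same network, gave 1 call. Cenpt, which links the centromere to the Ndc80 complex, read 10.63 and 11.20 in T23 and T1525, and 9.01 and 9.20 in normal 1 and 2, and rose 3.51-fold (1.81 on the log2 scale, SE 0.30, adjusted p = 0.0422). Cenps read 7.98 and 9.22 in T23 and T1525, and 6.40 and 6.67 in normal 1 and 2, with both normal arrays at background; its difference of 2.06 did not pass (adjusted p = 0.0778), and was 2.68 without T23 (adjusted p = 0.00927) and 1.44 without T1525 (adjusted p = 0.0264). Cenpx read 7.54 and 7.66 in T23 and T1525, and 7.35 and 7.14 in normal 1 and 2, a difference of 0.36 (adjusted p = 0.354) that turned to -0.01 with cyclic loess. Both Cenps and Cenpx also serve in a DNA repair complex. Both lines were above both normal arrays in all 3 genes.

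The remaining 3 genes carry the CENP name and other roles. Cenpb, which binds a short box in centromeric satellite DNA, read 11.40 and 12.50 in T23 and T1525, and 12.20 and 12.56 in normal 1 and 2, so T23 was the lowest and T1525 lay between the normal arrays (log2 difference -0.43, SE 0.46, adjusted p = 0.552). It was the measured centromere gene in which the groups overlapped. Cenpj, a protein of centriole assembly, read 7.60 and 8.58 in T23 and T1525, and 7.07 and 6.80 in normal 1 and 2, and was not called (log2 difference 1.15, SE 0.42, adjusted p = 0.156); the difference was 1.64 without T23 (adjusted p = 0.0199) and 0.66 without T1525 (adjusted p = 0.121). Cenpe, a kinesin that brings chromosomes to the spindle equator, read 6.05 and 5.99 in T23 and T1525, and 5.74 and 6.11 in normal 1 and 2, all at background.

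**Figure D4:**
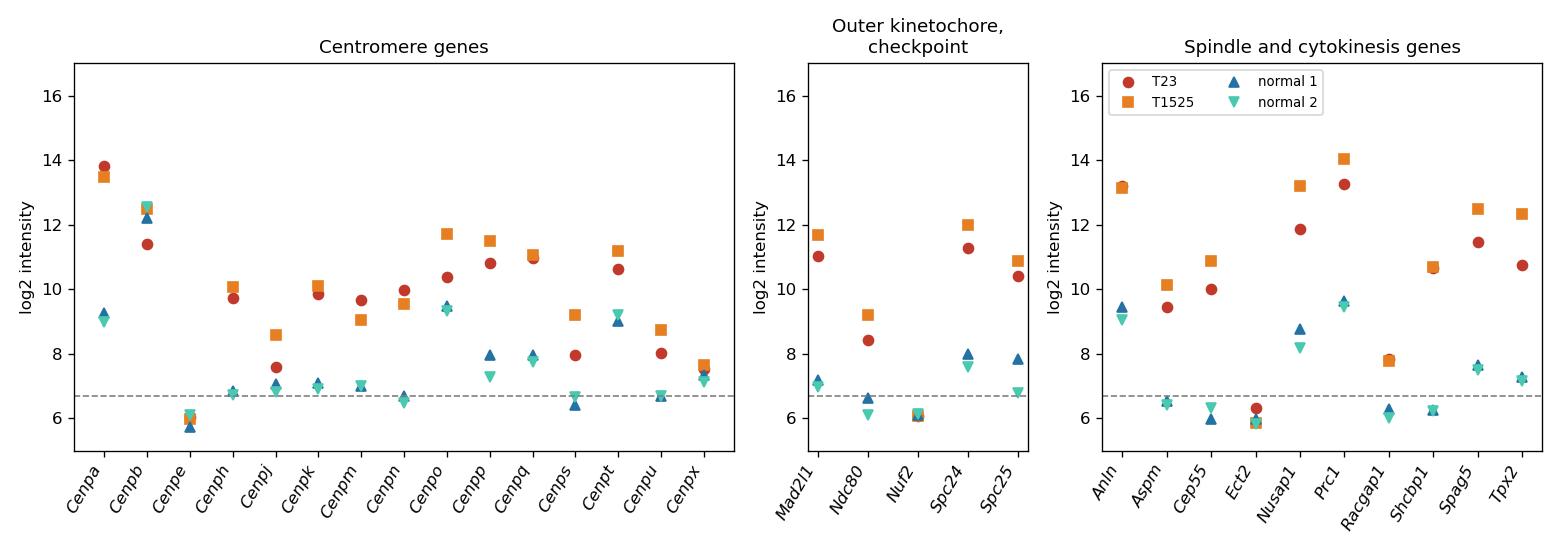
Log2 intensity of each centromere gene (left), outer kinetochore and checkpoint gene (middle) and spindle or cytokinesis gene (right) on each of the 4 arrays, with markers by array and the background threshold of 6.69 dashed. The lines stand above both normal arrays in every measured gene except Cenpb, though some of these genes counted as measured through the lines alone. Cenpe, Nuf2 and Ect2 lie at background on all 4 arrays.

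All 4 measured genes of the outer kinetochore and checkpoint rose. Ndc80 counted as measured through the lines alone, and the other 3 lay above background on all 4 arrays. Mad2l1, the checkpoint protein that holds back anaphase until every chromosome is attached, read 11.04 and 11.68 in T23 and T1525, and 7.18 and 6.98 in normal 1 and 2, a 19.5-fold rise (4.28 on the log2 scale, SE 0.32, adjusted p = 0.0137). Spc24, a subunit of the Ndc80 complex on its centromere side, read 11.28 and 11.99 in T23 and T1525, and 7.98 and 7.61 in normal 1 and 2, and rose 14.3-fold (3.84 on the log2 scale, SE 0.35, adjusted p = 0.0187). Its partner Spc25 read 10.40 and 10.88 in T23 and T1525, and 7.83 and 6.80 in normal 1 and 2; the normal arrays differed by 1.04 here, the widest gap between them among the members, and it rose as well (3.32 on the log2 scale, SE 0.45, adjusted p = 0.0315). Ndc80, on the side of the complex that binds microtubules, read 8.43 and 9.22 in T23 and T1525, and 6.64 and 6.11 in normal 1 and 2, and was at least 4.38-fold higher (2.45 on the log2 scale, SE 0.39, adjusted p = 0.0403, for the fitted difference). Nuf2, the direct partner of Ndc80, read 6.07 and 6.06 in T23 and T1525, and 6.10 and 6.13 in normal 1 and 2 from its single probe, all at background. Of the complex's 4 subunits, 3 were measured, Ndc80 through the lines alone, and all 3 of those rose.

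Of the spindle and cytokinesis genes 9 were measured and all 9 rose. Aspm, Cep55, Racgap1 and Shcbp1 counted as measured through the lines alone, so their place in this count rests on high line values. The other 5 lay above background on all 4 arrays. Tpx2, which activates Aurora A and starts microtubules around chromosomes, read 10.76 and 12.34 in T23 and T1525, and 7.29 and 7.15 in normal 1 and 2. Both lines were above both normal arrays, but the lines lay 1.58 apart, and the rise was 20.1-fold (4.33 on the log2 scale, SE 0.60, adjusted p = 0.0318), 34.8-fold without T23 and 11.6-fold without T1525. Shcbp1, a binding partner of the adaptor Shc1, read 10.66 and 10.69 in T23 and T1525, and 6.25 and 6.21 in normal 1 and 2, nearly the same in the lines, and was at least 15.8-fold higher (4.44 on the log2 scale, SE 0.22, adjusted p = 0.00898, for the fitted difference). Spag5 (astrin), which steadies kinetochore attachments, read 11.46 and 12.50 in T23 and T1525, and 7.64 and 7.48 in normal 1 and 2, and rose 21.4-fold (4.42 on the log2 scale, SE 0.43, adjusted p = 0.0193).

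Cep55, which recruits the abscission machinery to the midbody, read 10.01 and 10.89 in T23 and T1525, and 5.99 and 6.32 in normal 1 and 2, both normal arrays at background, and was at least 13.5-fold higher (4.30 on the log2 scale, SE 0.39, adjusted p = 0.0186, for the fitted difference). Nusap1, a microtubule-bundling protein of the spindle, read 11.87 and 13.20 in T23 and T1525, and 8.77 and 8.17 in normal 1 and 2, and rose 16.7-fold (4.06 on the log2 scale, SE 0.55, adjusted p = 0.0314), 26.4-fold without T23 and 10.5-fold without T1525. Prc1, which crosslinks the antiparallel microtubules of the central spindle and there binds Kif4, read 13.26 and 14.02 in T23 and T1525, and 9.63 and 9.45 in normal 1 and 2, and rose 17.1-fold (4.09 on the log2 scale, SE 0.35, adjusted p = 0.0169). For Nusap1 and Spag5 a second, dimmer probe differed by 1.58 (adjusted p = 0.0959) and 0.63 (adjusted p = 0.268) and was not called. Of the 12 members with several kept probes these were the 2 whose probes disagreed in call, and 0 had probes called in opposite directions. Called probes could still differ in size: Anln gave 3.91 and 1.74, and Shcbp1 4.44 and 1.90. Probes at background on all 4 arrays are left out of this count. The called genes Anln, Cenpk and Racgap1 each had such a probe.

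Anln, the contractile ring scaffold anillin, read 13.19 and 13.13 in T23 and T1525, and 9.45 and 9.04 in normal 1 and 2, and rose (3.91 on the log2 scale, SE 0.26, adjusted p = 0.0121). Aspm, a protein of the spindle pole, was at least 8.62-fold higher (adjusted p = 0.0193 for the fitted difference). Racgap1, which forms centralspindlin with Kif23, read 7.84 and 7.78 in T23 and T1525, and 6.30 and 6.00 in normal 1 and 2, and was at least 2.17-fold higher (1.66 on the log2 scale, SE 0.24, adjusted p = 0.0337, for the fitted difference). Its fitted rise was the smallest of the 27 called members, and it alone among them lay below the 95th percentile of measured genes, 1.68. Ect2, the exchange factor that centralspindlin brings to the division plane, read 6.31 and 5.86 in T23 and T1525, and 5.99 and 5.83 in normal 1 and 2, all at background.

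Each line was set against normal prostate in a fit of 3 groups, in which the lone array of a line is assumed to vary like the normal pair. The spread comes from the normal pair alone, so this repeats the fits above that left out the other line. It is no further check, and the p-values of both leave out the spread between the lines. The 2 comparisons share the normal arrays. In T23, 30 members were called higher (15.4% of measured genes) and 1 lower (14.9%), and in T1525 34 were higher (16.5%) and 2 lower (14.8%). The genes called higher in both lines were the 27 above with Cenpo, Cenps and Cenpu, and those called in T1525 but not T23 were Kif15, Kif1a, Kif3c and Cenpj. Kif1b was called lower in both, by -1.50 in T23 (adjusted p = 0.0205) and -1.09 in T1525 (adjusted p = 0.0364), and Kif21a in T1525 by -2.83 (adjusted p = 0.00771), a fitted value of an array at background. The measured members had median log2 differences of 2.85 (T23) and 2.95 (T1525), and the 7 measured mitotic kinesins of 3.44 and 3.86. Some of these calls depended on the processing: with cyclic loess Cenpo and Cenps in T23 and Kif3c in T1525 missed the threshold and Kif13a was lower in T23 (-1.11, adjusted p = 0.0395). With the mode subtracted Cenpo, Cenps, Ndc80 and Spc25 in T23 and Kif1b, Kif3c and Spc25 in T1525 missed it, and with the mean of all kept probes so did Cenpo in T23 and Kif1b in both. The difference between the 2 lines' effects was not tested.

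Set directly beside each other, T1525 read higher than T23 in 37 of the 45 measured members, against 51.7% of measured genes, with a median difference of 0.57 on the log2 scale beside 0.03 for all measured genes. This has no replicate check. All 7 measured mitotic kinesins, all 4 outer kinetochore and checkpoint genes, 7 of 9 transport kinesins and 11 of 14 centromere genes were higher in T1525. After raising values at background to the threshold, 8 members were at least 2-fold higher in T1525 (10.3% of measured genes were) and 1 was at least 2-fold higher in T23 (9.92%). The 8 were Kif1a (4.61-fold), Tpx2 (2.99-fold), Cenpo (2.52-fold), Kif15, Nusap1, Cenps, Cenpb and Spag5, and the 1 was Kif21a. Cenpa, Cenpm and Cenpn went the other way, by -0.36, -0.60 and -0.46, and Shcbp1, Anln and Racgap1 differed by 0.03, -0.06 and -0.07. For scale, Cenpp differed by 0.70 between the lines and by -0.68 between the normal arrays.

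**Figure D5:**
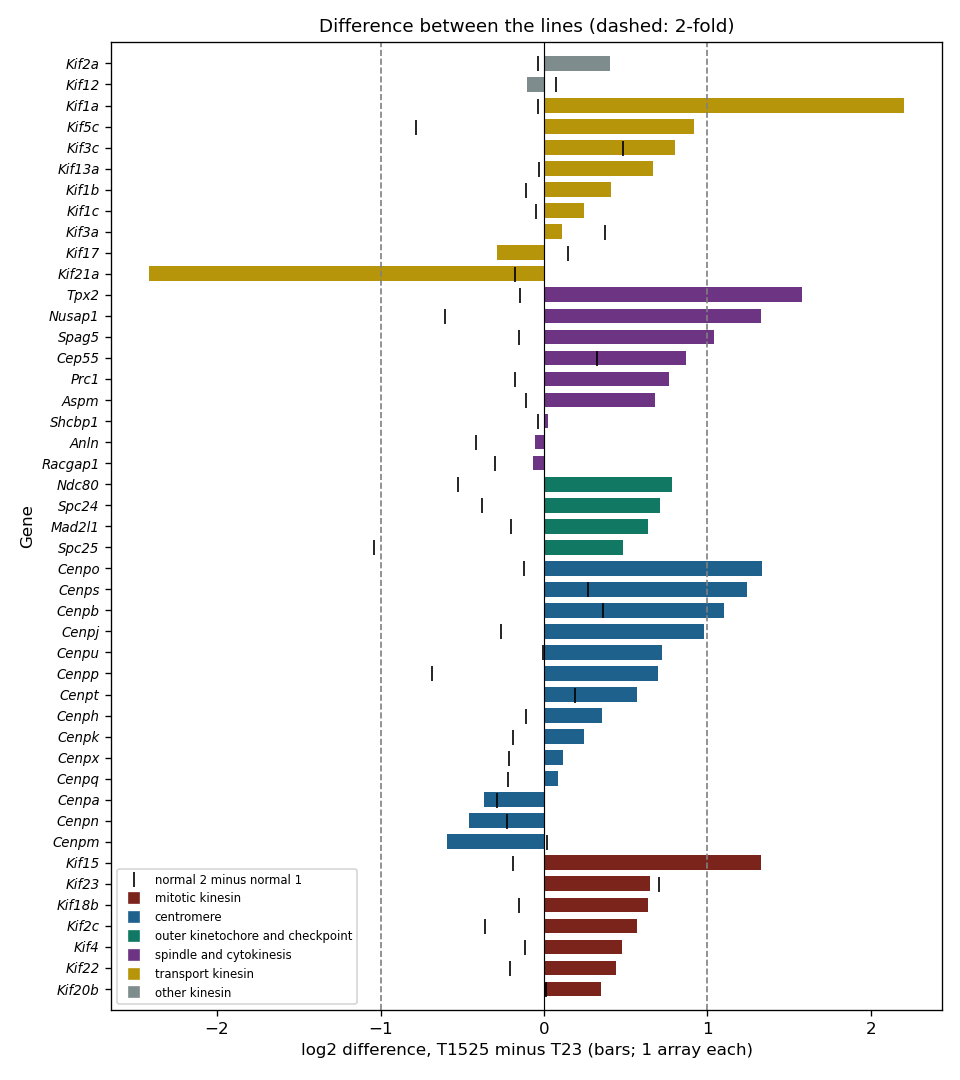
Log2 difference of T1525 minus T23 for the 45 measured members as measured (bars, colored by role, 1 array each), with the difference of normal 2 minus normal 1 for the same gene as a black tick and a 2-fold difference dashed. Bars point to T1525 in 37 of 45 genes; Kif21a is the long bar toward T23 and Kif1a the longest toward T1525.

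Genes of the same machinery outside the member list were read in the same fit, from lists chosen with earlier results of these data known. Of 27 kinetochore and centromere partners on the array 22 were measured, 11 rose and 0 fell. Over all measured genes 5.30% rose and 6.09% fell. The largest rises were those of Birc5 and Aurkb, subunits of the chromosomal passenger complex, by 4.88 and 4.52 on the log2 scale, and the lowest fitted differences were those of Zwint (0.42, adjusted p = 0.588) and Ttk (0.48, adjusted p = 0.266). Zwint differed in sign between the lines, 1.07 in T23 and -0.22 in T1525. Ttk lay at background on all arrays but T1525, where it read 6.70, so its fitted value is one of background readings. The median log2 difference of these partners was 2.56 in T23 and 2.29 in T1525. Of 29 spindle partners 26 were measured, 13 rose and 0 fell, led by the mitotic kinases Plk1 (26.0-fold) and Aurka (18.2-fold), and the lowest were the centrosomal proteins Tacc2 (-1.03, adjusted p = 0.248) and Tacc1 (-1.02, adjusted p = 0.563). Both values rested on T1525: Tacc2 differed from normal prostate by -0.39 in T23 and -1.68 in T1525, and Tacc1 by 0.54 in T23 and -2.58 in T1525. Of 25 transport partners 23 were measured and 0 rose or fell, which is not far from the shares of all measured genes for so short a list. Dynll1, a dynein light chain, had the highest difference at 1.29 (adjusted p = 0.0511), followed by the dynein light intermediate chain Dync1li2 at 0.90 (adjusted p = 0.131). Klc4, a kinesin light chain, had the lowest difference at -1.50 (adjusted p = 0.0744), followed by the kinesin Kifc2 (-1.09, adjusted p = 0.368). The Kifc2 value rested on T23, which read 6.15, at background: T23 differed from normal prostate by -2.05 and T1525 by -0.12, and after raising T23 to the threshold the difference was -0.82, behind the dynactin subunit Dctn1 at -0.95. The spindle partners had median differences of 1.37 in T23 and 1.73 in T1525, and the transport partners of -0.07 and -0.03. The list medians were 2.36, 1.54 and 0.01 on the log2 scale, beside 0.11 for all measured genes, and Kifap3 stands in the last 2 lists.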

How the data were processed

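The intensity values used were deposited by the authors, normalized and on a linear scale, for 24613 probes. The submitters' processing notes name BeadStudio; how it was set is not given in the sources used here. All 4 columns hold nearly the same sorted values (median gap 0.183%), as after quantile normalization. A further 8 columns of signals and detection p-values are named by slide position and were not used, so slide could not be a block. Log2 was taken. The background threshold is the mode of all log2 values (6.12) plus the 0.01 normal tail of the SD left of it (0.247). A gene is read from its kept probe with the highest mean; symbols are GEO's platform annotation (20984 probes with 1 symbol, 1 with several, 3628 with none). A bound (at least) sets values at background to the threshold. Two-sided tests used limma 3.58.1 (R 4.3.3), with 2 residual and 2.07 prior degrees of freedom (1 and 2.95 for single lines). A trial on simulated data gave all 4 arrays the spread of the normal pair, so it does not cover the spread between the lines. Array values are given by rule for Cenpa, Tpx2 and Kif11, for the 4 members of each role that differ most from normal and the 2 that differ most between lines, and for uncalled mitotic members, and beyond the rule for others; 2 partners a list and direction are named. The planned comparison of motor protein sequences is not analysed here. Members and lists were chosen with earlier results of these data known. Figures used matplotlib 3.10.9.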

Additional observations from a re-analysis of the deposited data

How the results depend on the processing

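No paired analysis was possible because the groups share only replicate number 1. The count of members called higher was between 25 and 28 under 9 other settings of scaling, filter, threshold, background and probe choice. One of these, median scaling over the kept probes, was added after seeing the data. Leaving out 1 array gave counts from 0 to 34 higher and 0 to 2 lower over all members. By role the higher counts ran from 0 to 7 for mitotic kinesins, 0 to 2 for transport kinesins, 0 to 12 for centromere genes, 0 to 4 for outer kinetochore and checkpoint genes and 0 to 9 for spindle and cytokinesis genes, and the lower counts of transport kinesins from 0 to 2. Kinetochore partners gave 0 to 17, spindle partners 0 to 18 higher and 0 to 2 lower, and transport partners 0 to 2 higher and 0 to 4 lower. The lowest counts of higher calls come from leaving out a normal array, where the residual spread is that between the 2 lines alone. Where a line is left out, it is that of the normal pair alone. The transport kinesins had their lowest count without T1525 as well.

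With cyclic loess 1 member, a transport kinesin, was lower in the lines and 2 were lower in T23. The share of gene calls that were higher fell from 46.5% to 32.0%. The transport partners had 1 higher call with the looser tail, with no filter and where 2 arrays had to pass. With the mode subtracted 1 member was lower in T1525, and with the mean of all kept probes 0 were lower in T23 and 1 in T1525. Left-out arrays moved Cenpb to between -0.98 and 0.12, Kif3a to between -0.15 and 0.22 and Kif5c to between -0.61 and 0.31. Signs that turned all belonged to uncalled differences. With cyclic loess these were Cenpb (-0.026), Kif1c (-0.012) and Kif3a (-0.10) in T1525, Cenpx (-0.059), Kif1a (-0.16), Kif1c (-0.24) and Kif2a (-0.069) in T23, and Cenpx (-0.014), Kif1c (-0.12) and Kif3a (-0.14) over both lines. Kif3a read -0.029 with the mean of all kept probes, -0.15 without normal 1 and -0.02 without T1525; Kif5c read 0.24 without normal 1 and 0.31 without T23, and Cenpb 0.12 without T23. The causes were not tested. With 2 arrays a class, absent calls are no sign that a gene did not change.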
